A study of Mus musculus with 4 samples.

Results

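Spheroids and organoids grown from the small intestine of the same animal were compared around birth, in the pair of embryonic day 18 (E18) and the pair of the newborn, postnatal day 0 (P0). These are 2 of the 4 pairs of the series, chosen by their stage label, and the other 2 pairs are from embryonic day 16 (E16). Every animal was a CD1 wild-type mouse, whose small intestine was cultured within Matrigel (a gel of basement membrane proteins) in medium with EGF, Noggin, R-spondin1 and fetal bovine serum. Spheroids and organoids were picked apart and replated for 3 passages before RNA was taken. The E18 group is 1 fetus and the P0 group is 1 newborn, so stage, animal and culture cannot be told apart in any difference between them.

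Organoids carry budding crypts in which Lgr5-positive stem cells, kept by Wnt signals, give rise to absorptive enterocytes and to goblet, enteroendocrine and Paneth cells. Fetal spheroids are hollow cysts of immature epithelium that lack buds. Around birth the mouse gut epithelium prepares for milk: enterocytes take up and package fat, goblet cells secrete mucus, and Paneth cells with their antimicrobial granules appear only later.

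Each gene had 1 deposited value per animal, taken as a log2 ratio, where 1 means a 2-fold difference. A positive value is read as likely higher in spheroids, since the labels name the spheroid first, but no label names the numerator. If the sign ran the other way, every direction below would turn. A ratio cannot say whether the spheroid or the organoid moved. In such bulk RNA, fewer cells of a type and less RNA per cell cannot be told apart. A gene was called in a pair when its ratio lay above the highest or below the lowest of 94 negative control probes of that pair. That range ran from -0.36 to 0.10 in the E18 pair and from -0.33 to 0.17 in the P0 pair. The genes nearest to its ends had ratios of 0.1045 just inside and 0.105 just beyond in the E18 pair, and of 0.1735 and 0.1739 in the P0 pair. At the low ends they stood at -0.359 and -0.3595 in the E18 pair and at -0.32725 and -0.328 in the P0 pair.

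Most genes beyond the range in both pairs pointed the same way. Of 15123 genes, 2014 (13.3%) were higher in spheroids in both pairs and 855 (5.65%) were lower in both. A further 306 genes (2.02%) were higher in spheroids at E18 and lower at P0, and 182 (1.2%) were the reverse. In total 3357 genes (22.2%) were beyond the range in both pairs and 7980 (52.8%) inside it in both. The shares by direction are the background for the counts of list members below. Of the 2869 genes called in the same direction, 70.2% were higher in spheroids. This share rested on the range: a single control probe set the low end in both pairs, and the next lowest stood at -0.09 in the E18 pair and -0.10 in the P0 pair. With the mean plus or minus 3 SD of the controls as the range, 52.8% were higher, and without the lowest and highest control probe 50.2%. The genes with opposite calls moved too: 412 were higher at E18 and lower at P0 and 432 the reverse with 3 SD, and 704 and 629 without the extreme probes. At 2-fold or more, 230 genes (1.52%) were higher in both pairs, 148 (0.979%) were lower in both, 11 (0.0727%) were higher at E18 and lower at P0, and 7 (0.0463%) were the reverse. Over all genes, which share libraries and are no replicates, the ratios of the pairs had a Pearson correlation of 0.622 and a Spearman correlation of 0.461.

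**Figure D1:**
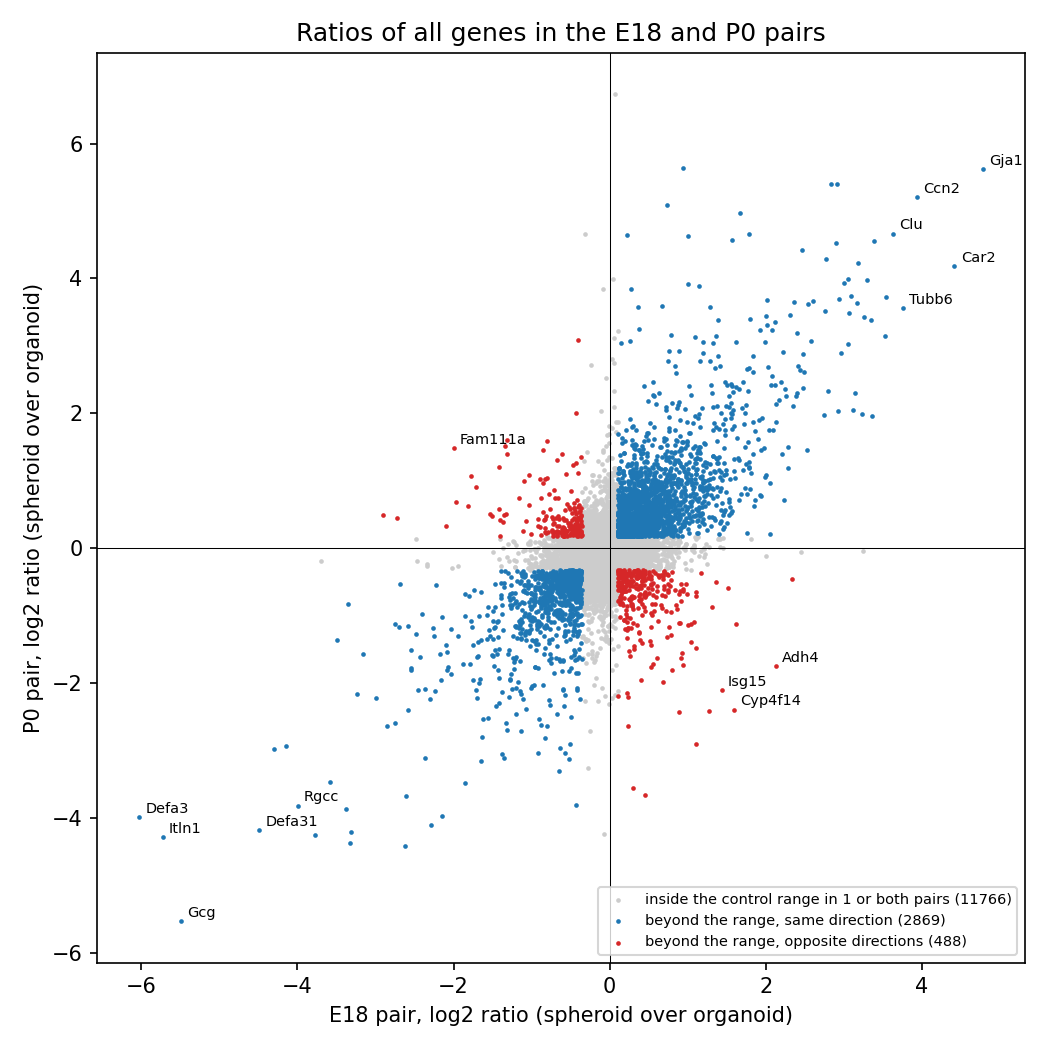
Log2 ratio of spheroid over organoid in the E18 pair (x axis) and the P0 pair (y axis), 1 point per gene. Blue points (2869) lay beyond the control range in the same direction, red points (488) in opposite directions and grey points inside it in 1 or both pairs; Gja1 stands at the upper right at 4.78 and 5.62, and Gcg at the lower left at -5.49 and -5.54.

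Of the genes highest in spheroids at both stages, Gja1, the gap junction connexin 43 (Entrez gene 14609), stood at 4.78 in the E18 pair and 5.62 in the P0 pair, which is 27.4-fold and 49.1-fold. Car2, a carbonic anhydrase, had ratios of 4.42 and 4.18. Ccn2, the secreted connective tissue growth factor and a known target of the Hippo pathway effector YAP, had 3.93 and 5.20. Both pairs were thus far above the control range for each of the 3 genes. Clu, a secreted chaperone, stood at 3.63 and 4.67, and the surface protein Msln at 3.39 and 4.55. The basement membrane collagen chains Col4a1 and Col4a2 had ratios of 3.29 and 3.18 at E18 and 3.98 and 4.23 at P0. The tubulin Tubb6, the aldo-keto reductase Akr1b8, the LIM protein Crip2, Cysrt1 and the annexin Anxa1 made up the rest of the 12 highest, which lay between 3.17 and 4.78 at E18 and between 3.38 and 5.62 at P0. All 12 were also above 0 in both E16 pairs, and 11 of them rested on 1 probe.

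Markers of fetal spheroids were higher in both pairs in 15 of 15 measured genes, against 13.3% of all genes. The study picked several such markers on cultures like these, and all lists here were chosen with earlier results of these data known. The count is therefore not independent evidence. The median ratio of the 15 markers was 3.09 at E18 and 3.98 at P0, against -0.0015 and 0.003 over all genes. With the columns scaled to the same spread, the E18 minus P0 difference of these medians went from -0.89 to -0.04. The larger median at P0 thus depended on the scale of the columns. Ctse, an aspartic protease of gastric epithelium, varied most between the pairs, at 1.01 and 4.63. Of 17 measured YAP targets, 12 were higher in both pairs, against 13.3% of all genes, and none lower in both. Ccn2, Clu and Msln, for example, are in this list and among the fetal markers, so the 2 counts overlap. Ankrd1 had ratios of 0.89 and 1.12 and the adaptor Ajuba 0.81 and 1.07, whereas the matrix protein gene Ccn1 was at -0.81 at E18 and 1.04 at P0. Of 17 adhesion and matrix genes, 10 were higher in both and none lower in both, against 13.3% and 5.65% of all genes. Col4a1 of this list is also a fetal marker, so this count overlaps as well. The laminin chain Lamb1 stood at 0.74 and 2.78.

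Genes of squamous epithelium were split. Of 22 measured, 10 were higher in both pairs and 10 stayed inside the range in both, against 13.3% and 52.8% of all genes. The share inside the range was thus near that of all genes. The envelope protein genes Lor (2.94 and 3.69), Ivl (2.02 and 3.31) and Sprr1a (3.06 and 4.00) and the keratin Krt4 (3.07 and 3.49) were among the former. Trp63, the transcription factor of the basal squamous layer, stood at -0.01 and 0.04, and the basal keratin Krt5 at 0.00 and 0.01.

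At the other end, hormones of enteroendocrine cells and products of Paneth cells had the lowest ratios at both stages. Gcg, which encodes the precursor of glucagon-like peptides, stood at -5.49 in the E18 pair and -5.54 in the P0 pair, which is 44.9-fold and 46.4-fold lower in spheroids. Cck, the hormone cholecystokinin, had ratios of -3.32 and -4.37. Of 28 measured enteroendocrine genes, 22 were lower in both pairs, against 5.65% of all genes, and none was higher in both. The median was -1.03 at E18 and -1.25 at P0.

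The enteroendocrine list covers the steps of that lineage. Neurog3, the transcription factor that starts it, stood at -1.57 and -0.997, and Neurod1, which acts after it, at -2.07 and -1.76. The granule proteins Chga (-1.71 and -2.11) and Chgb (-2.99 and -2.23) were low as well. Single hormones differed in size between the stages: Pyy, peptide YY, stood at -3.49 and -1.37, and Gip, the glucose-dependent insulinotropic peptide, at -2.28 and -4.11. Somatostatin, Sst, was inside the control range at E18 (-0.25) and at -2.71 at P0. Ddc, an enzyme of serotonin synthesis, was the member above the range at E18, at 1.81, and lay inside it at P0, at 0.13.

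Of 11 measured Paneth cell genes, 8 were lower in both pairs, 2 were lower at E18 and higher at P0, and none was higher in both. Of all genes, 5.65%, 1.2% and 13.3% were. The 8 include Guca2b and Nupr1, which are also in the goblet cell and the amino acid response list. The defensin Defa3 stood at -6.03 and -3.99, the defensin Defa31 at -4.49 and -4.18, the lysozyme Lyz1 at -4.30 and -2.98, the lectin Itln1 at -5.73 and -4.28 and the ribonuclease Ang4 at -3.77 and -4.26. Probes for defensins and lysozymes may also read near-identical copies. Clps, pancreatic colipase, was among the 2 opposite genes, at -2.90 at E18 and 0.49 at P0. Mmp7, the protease that matures mouse defensins, was below the range only at E18, at -2.47 against -0.19. Among the 12 lowest genes were also Rgcc, a cell cycle regulator (-4.00 and -3.82), the neuronal surface protein Nrn1 (-3.58 and -3.46), the pyrimidine-degrading enzyme Dpyd (-3.38 and -3.87) and the fetal serum protein Afp (-3.32 and -4.21). All 12 were below 0 in both E16 pairs too, and 11 of them rested on 1 probe.

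Stem cell marker genes were lower in spheroids at both stages in 6 of 18 measured, against 5.65% of all genes. Lgr5 itself, the receptor for R-spondin (Entrez gene 14160), had nearly equal ratios of -2.31 and -2.25, which is 4.94-fold and 4.74-fold lower. Its reading rested on 1 probe. Smoc2, a matrix protein of the crypt base, stood at -4.15 and -2.93, and the Wnt feedback gene Axin2 at -1.47 and -1.17. Other stem cell genes parted by stage. Ascl2, a Wnt-driven transcription factor, stood at -0.44 and 0.42, the ubiquitin ligase Rnf43 at -0.58 and 0.30, and the growth factor receptor inhibitor Lrig1 at -1.41 and 0.17. Sox9, a transcription factor of the crypt, was at -1.22 at E18 and inside the range at P0, at 0.09. The adhesion receptor Cd44 was the member higher in both, at 0.78 and 0.94.

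Genes of DNA replication had medians of -0.48 and -0.33. Of 25 measured, 8 were lower in both pairs and none higher in both, against 5.65% and 13.3% of all genes. The polymerase subunit Pold1 (-1.50 and -1.08) and the primase subunit Prim1 (-1.21 and -0.81) were among those with the lowest ratios. Of 26 mitosis genes 9 were lower in both, against 5.65% of all genes. The anaphase activator Cdc20 (0.50 and 0.31) was the 1 gene higher in both, against 13.3% of all genes. Of 14 G1 cyclins and inhibitors, 5 were higher in both, 1 lower in both and 2 higher at E18 and lower at P0. Of all genes, 13.3%, 5.65% and 2.02% were. The medians of the list were 0.12 and -0.24. The cyclin Ccnd1 (1.72 and 1.84) and the inhibitors Cdkn1a (1.32 and 1.37) and Cdkn2a (1.46 and 1.08), which halt the cycle in G1, were among the 5. In the E16 pairs the replication medians had the other sign, at 0.33 and 0.50. Amino acid response genes were lower in both pairs in 10 of 19, against 5.65% of all genes. Among them were the transcription factor Atf5 (-2.16 and -1.96) and Chac1, which degrades glutathione (-1.35 and -3.12).

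Of 18 measured genes of cholesterol synthesis, 14 were higher in both pairs, against 13.3% of all genes, and none was lower in either. The medians were 0.59 at E18 and 0.64 at P0. Ebp, a sterol isomerase, had ratios of 1.12 and 1.18, the decarboxylase Mvd 0.72 and 1.31, the kinase Pmvk 0.82 and 0.97 and the squalene epoxidase Sqle 0.88 and 0.64. Insig1, which restrains the sterol-sensing machinery, stood at 1.06 and 0.40. The same list had medians of -0.32 and -0.57 in the E16 pairs.

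Detoxifying enzymes were higher in both pairs in 13 of 25 measured genes, against 13.3% of all genes. The glutathione transferases Gsta3 (2.48 and 2.62) and Gsta4 (2.48 and 2.87), the heme oxygenase Hmox1 (2.47 and 2.38) and the glutathione synthesis enzyme Gclc (1.56 and 2.01) led the list. A smaller group had opposite directions. The sulfotransferase Sult1b1 stood at 0.89 at E18 and -1.12 at P0, and the glutathione transferase Gstm3 at 0.91 and -0.64. Transferases of this family have close copies that a probe may share.

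**Figure D2:**
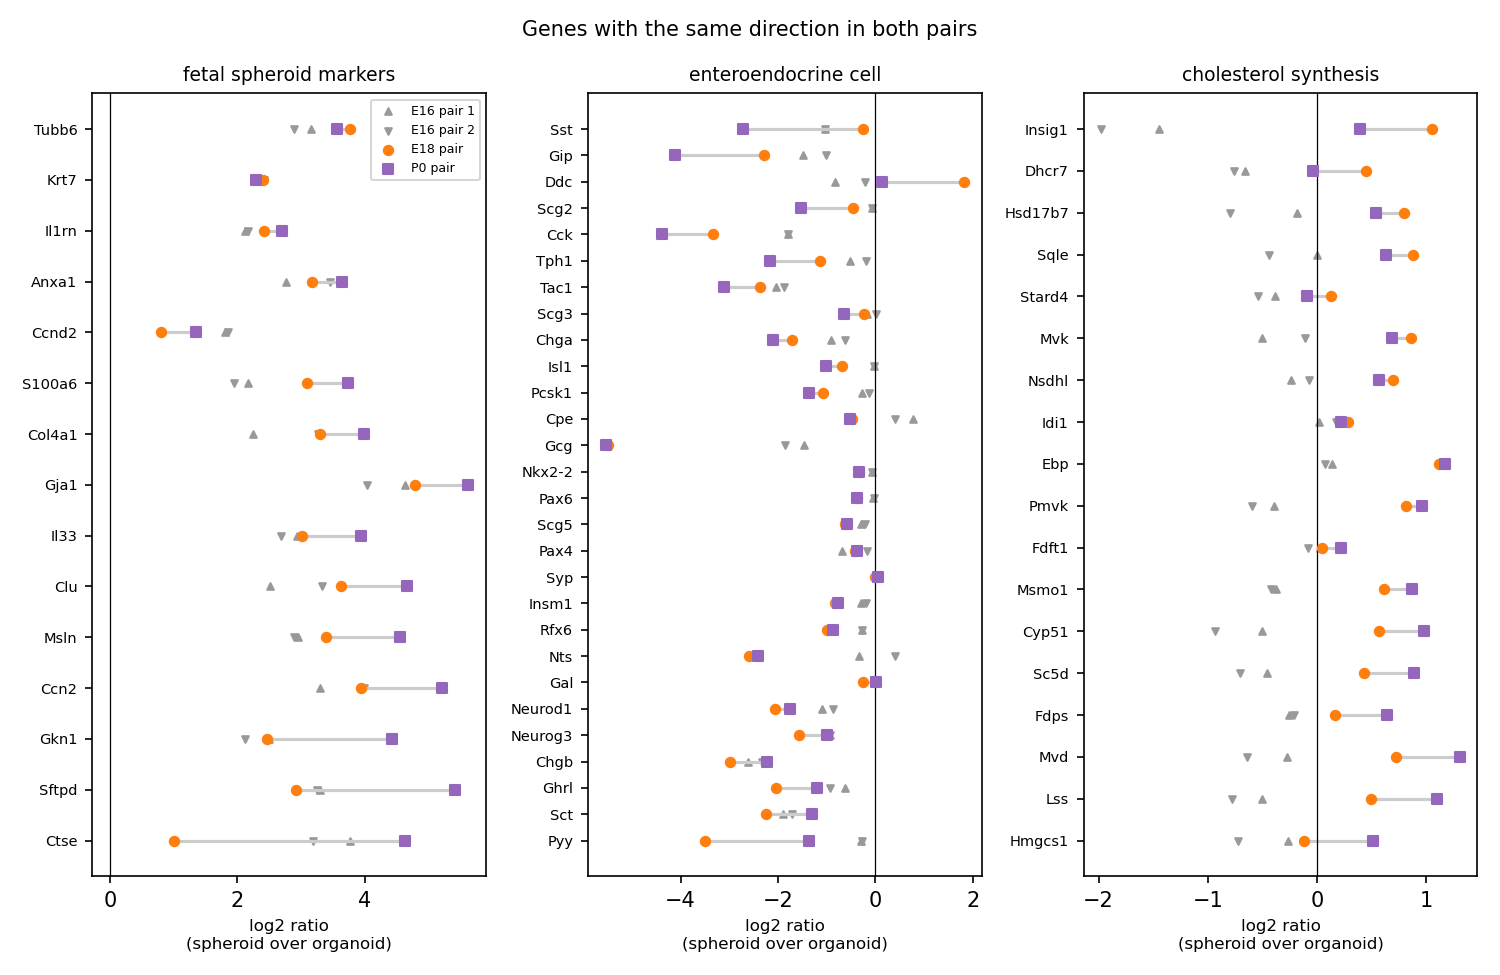
Log2 ratios of spheroid over organoid (x axis) for each measured gene of 3 lists (rows), with the E18 pair as circles, the P0 pair as squares and the E16 pairs as triangles. The 15 fetal spheroid markers lay above 0 in all pairs, 22 of 28 enteroendocrine genes were below the control range at both E18 and P0, and 14 of 18 cholesterol genes were above it at both.

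Of 43 gene lists, 4 had a median above the control range at one stage and below it at the other. The medians of enterocyte and brush border genes, enterocyte lipid handling and glycolysis were higher in spheroids at E18 and lower at P0. That of goblet cell genes was the reverse. Not every member shared the direction of its list's median. Interferon response genes parted as widely but just missed this rule, since their E18 median of 0.09 lay inside the range. With 1 animal per stage these differences have no replicate check.

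**Figure D3:**
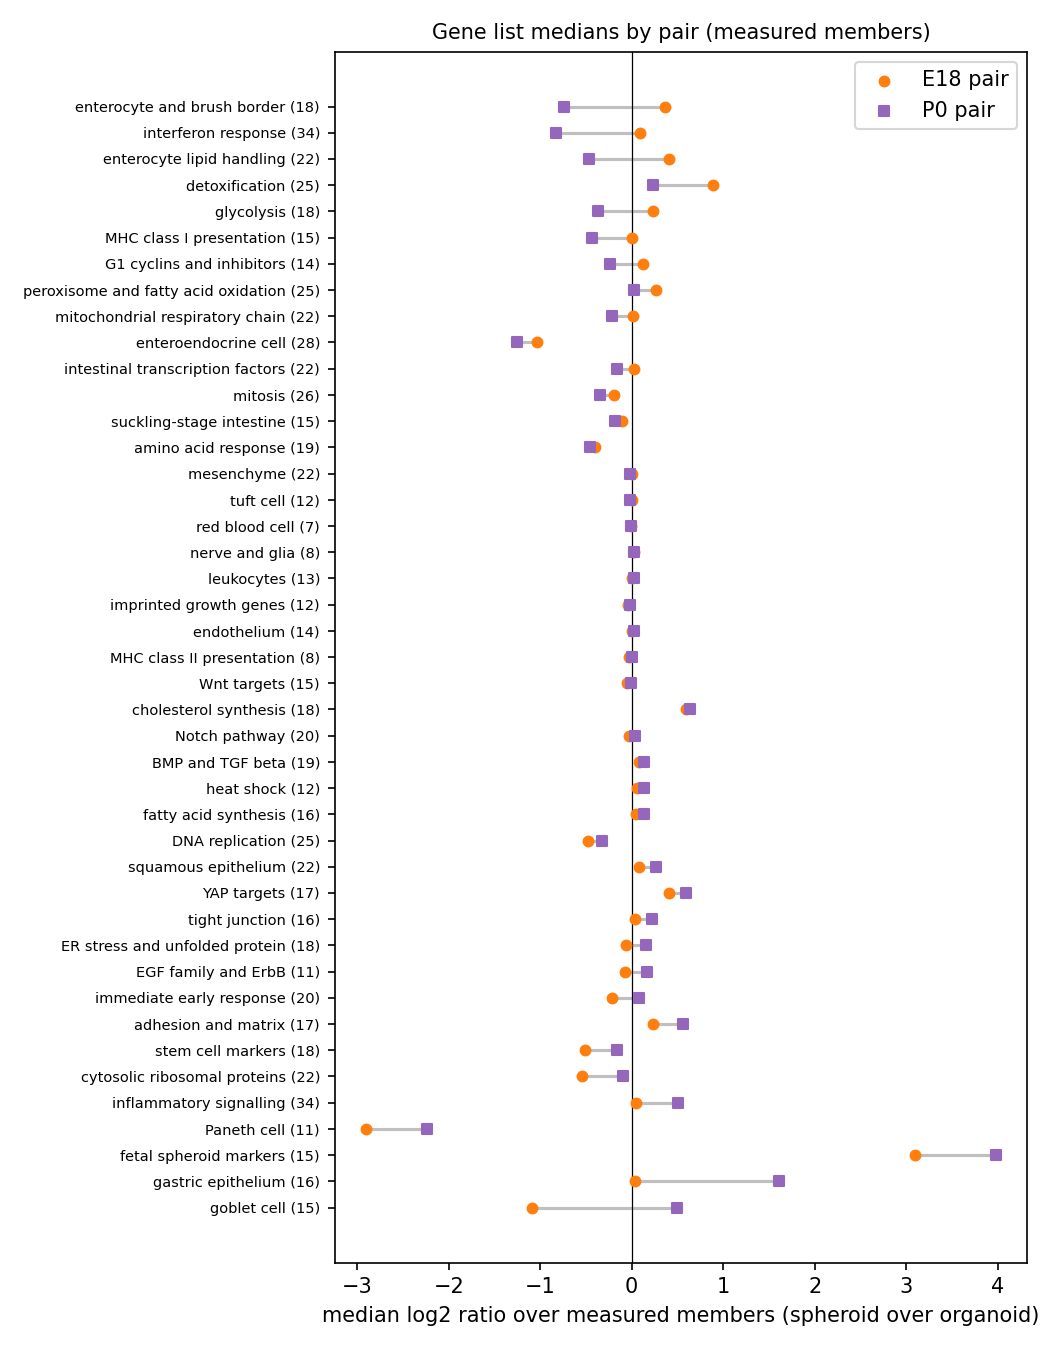
Median log2 ratio of spheroid over organoid (x axis) for 43 gene lists (rows, number of measured genes in brackets) in the E18 pair (circles) and the P0 pair (squares), ordered by the difference. Brush border genes stand at the top (0.36 and -0.74), goblet cell genes at the bottom (-1.09 and 0.50), and lists of other cell types in the middle near 0.

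Interferon response genes act in antiviral defence. Interferon binding activates the factors Stat2 and Irf9, which enter the nucleus and bind a short element, the interferon-stimulated response element, in the promoters of target genes. All 34 measured members had a higher ratio at E18 than at P0, against 48.1% of all genes. At E18 17 members were above the control range and 4 below it, where 24.2% and 10.8% of all genes lay. At P0 none was above and 28 were below, against 21.5% and 12.9% of all genes. Opposite calls were made for 15 of the 34, against 2.02% of all genes, and the medians were 0.09 and -0.83.

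Among the effectors, Isg15, a ubiquitin-like protein, stood at 1.43 in the E18 pair and -2.10 in the P0 pair. Ifit3, an antiviral protein, had 1.28 and -2.41, and the related Ifit1 0.32 and -1.50. The oligoadenylate synthetase-like genes Oasl1 (1.08 and -1.10) and Oasl2 (0.89 and -2.42) did likewise. Ifit and Oasl genes have close copies that could share a probe. Usp18, which removes Isg15 from proteins, stood at 0.80 and -1.81, and the membrane tether Bst2 at 0.64 and -0.43.

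The regulators had ratios in the same directions. Irf7, a factor that amplifies interferon production, stood at 0.74 and -1.32, Irf9 at 0.27 and -0.84 and Stat2 at 0.12 and -0.78. The RNA sensor Ddx58, known as RIG-I, had 0.50 and -0.67. The immunity-related GTPases Igtp (0.23 and -2.64) and Irgm1 (0.27 and -0.72) barely passed the range at E18. Ifitm3, which blocks viral entry, was lower in spheroids at both stages, at -0.42 and -3.81, as were the immunoproteasome subunits Psmb8 (-0.59 and -2.09) and Psmb9 (-1.07 and -2.39). Irf1 hardly differed between the pairs, at -0.34 and -0.35. The list medians of the E16 pairs were -0.12 and -0.48, between those of E18 and P0.

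The response element was searched as GAAA, any 2 bases and GAAA again, on both strands, in the 250 bases before each gene's start in RefSeq (build GRCm38.p6). It was found in 978 of 32851 windows (2.98%) and in 443 of 12213 genes of the array with a window (3.63%). Of the 28 interferon genes with a window 15 held it (53.6%), and of the 13 with opposite calls and a window 7 did (53.8%). A match describes letters and is not a test of binding. The 7 stretches are shown because their genes had opposite ratios at the stages, with the matched element in capitals, read 5′ to 3′ on the gene's strand; overlapping matches form a longer run, and TTTC, any 2 bases and TTTC is the same element on the other strand.
Isg15 (chr4:156200855-156200916, minus strand): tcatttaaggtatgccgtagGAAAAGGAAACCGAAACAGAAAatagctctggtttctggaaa
Ifit3 (chr19:34583353-34583402, plus strand): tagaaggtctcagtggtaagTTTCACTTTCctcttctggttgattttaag
Ifit1 (chr19:34640765-34640833, plus strand): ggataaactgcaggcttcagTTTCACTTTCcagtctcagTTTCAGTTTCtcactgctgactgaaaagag
Bst2 (chr8:71537567-71537622, minus strand): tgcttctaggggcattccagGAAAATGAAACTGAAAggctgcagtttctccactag
Igtp (chr11:58199502-58199551, plus strand): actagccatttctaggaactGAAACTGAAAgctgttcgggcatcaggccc
Irgm1 (chr11:48871421-48871470, minus strand): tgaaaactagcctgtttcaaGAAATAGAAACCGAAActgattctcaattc
Stat2 (chr10:128270256-128270305, plus strand): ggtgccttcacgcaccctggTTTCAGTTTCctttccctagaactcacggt
Ifit1 held a pair of separate elements within this stretch, and Isg15, Bst2 and Irgm1 held overlapping ones. The first matched base lay between 30 bases (Irgm1) and 222 bases (Stat2) before the gene's start.

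**Figure D4:**
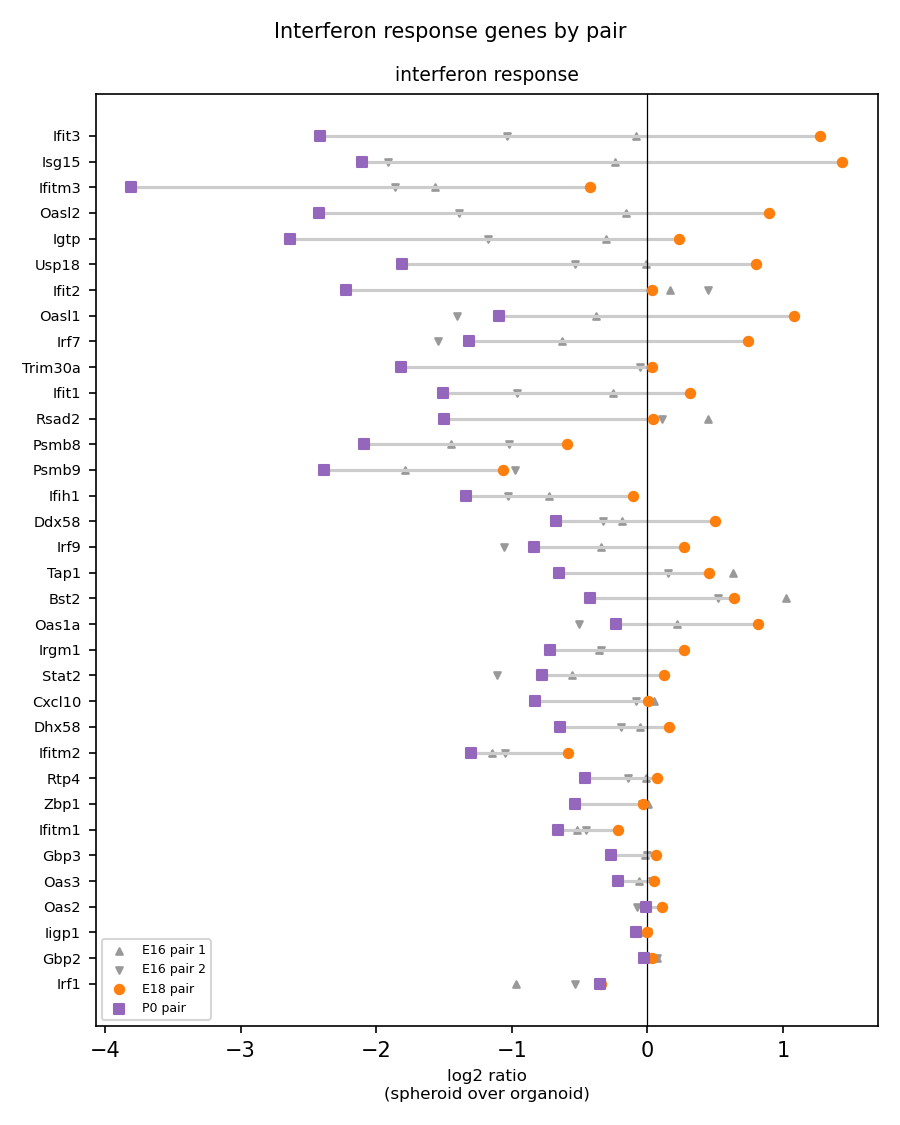
Log2 ratio of spheroid over organoid (x axis) for the 34 measured interferon response genes (rows), with the E18 pair as circles, the P0 pair as squares and the E16 pairs as triangles. Every circle lies to the right of its square, from Ifit3 (1.28 and -2.41) down to Irf1 (-0.34 and -0.35).

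Absorptive genes parted in the same direction. All 18 measured enterocyte and brush border genes had a higher ratio at E18 than at P0, against 48.1% of all genes. Their medians were 0.36 and -0.74. Opposite calls were made for 5 of them, each higher in spheroids at E18 and lower at P0, against 2.02% of all genes. Treh, which splits trehalose, stood at 0.92 and -1.64, and the peptidases Mme (0.78 and -0.56), Anpep (0.45 and -0.93) and Enpep (0.44 and -0.88) followed, with the amino acid transporter Slc7a9 at 0.69 and -0.60. Sugar transport was low at both stages: the glucose transporters Slc5a1 (-1.63 and -2.80) and Slc2a2 (-0.67 and -2.46) and the fructose transporter Slc2a5 (-0.67 and -1.46). So was the peptidase Dpp4, at -2.14 and -3.98. Ezr, a protein of microvilli, was higher in both at 0.59 and 0.35.

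Of 22 measured genes of lipid handling, 10 were higher in spheroids at E18 and lower at P0, against 2.02% of all genes. The apolipoproteins of chylomicrons, the particles that carry dietary fat, were among them: Apoa1 stood at 1.32 and -0.87, Apoa4 at 0.56 and -0.93 and Apoc3 at 0.24 and -2.22. Mttp, which loads lipid onto these particles, had 0.38 and -1.26. The triglyceride-forming acyltransferases Mogat2 (0.99 and -0.68) and Dgat1 (0.53 and -0.96) did likewise. The cholesterol transporters Npc1l1 (-0.10 and -2.07) and Abcg5 (-0.77 and -2.33) were not above the range at either stage. Both list medians in the E16 pairs were below those at P0, at -1.69 and -1.73 for the brush border and -1.85 and -2.05 for lipid handling.

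Single genes outside these lists also had opposite ratios. Adh1, an alcohol dehydrogenase that oxidises retinol, stood at 1.11 in the E18 pair and -2.91 in the P0 pair, and Adh4 at 2.13 and -1.75; these dehydrogenases are related and a probe may cross-read. In the lipid list, the retinol dehydrogenase Rdh7 had 1.04 and -1.39, the carotene-cleaving Bco1 0.44 and -0.55, and Rbp2, the retinol carrier of enterocytes, 1.45 at E18 and 0.14, inside the range, at P0. Aldh1a1, which oxidises retinaldehyde, was higher at both stages, at 2.24 and 0.71. The cytochrome Cyp4f14 (1.59 and -2.40) and the diamine oxidase Aoc1 (1.10 and -1.48) were higher at E18 and lower at P0. Of the 12 genes with the clearest opposite ratios in this direction, 11 were below 0 in both E16 pairs, and 8 rested on 1 probe. The 12 also held Xlr3c (1.62 and -1.12), a member of an X-linked family with close copies, Emc9, a subunit of a membrane insertion complex (1.04 and -1.12), Clca4a (1.01 and -1.14) and the scaffold protein Mpp4 (0.94 and -1.74).

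Transcription factors of the intestine were divided. Cdx2, which sets intestinal identity, stood at 0.65 at E18 and -0.84 at P0, and Hnf4g, a nuclear receptor of enterocytes, at 0.92 and -0.78. The related Cdx1 was low at both stages, at -1.46 and -2.35. Foxa1, a factor of gut endoderm, was higher at both, at 0.19 and 1.42, whereas Foxa3 stood at -1.37 and 0.38.

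Goblet cell genes ran the opposite way. Of 15 measured, 5 were lower in spheroids at E18 and higher at P0, against 1.2% of all genes, and the medians were -1.09 and 0.50. Spdef, the transcription factor that matures goblet cells, stood at -1.78 and 1.06. The mucin-folding disulfide isomerase Agr2 had -1.09 and 0.99, the trefoil factor Tff3 -1.36 and 0.49, and the secreted resistin-like Retnlb -1.33 and 0.50. Creb3l4, a membrane-bound transcription factor, had -1.71 and 0.90. The members were not uniform: the lectin Zg16 (1.62 and 2.39) and the mucus protease Clca1 (0.66 and 1.5) were higher at both stages, and the guanylin peptides Guca2a (-1.31 and -2.69) and Guca2b (-0.38 and -2.24) lower at both. Atoh1, the factor that starts all secretory lineages, was at -1.42 at E18 and inside the range at P0, at -0.16.

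Genes outside the goblet list shared this direction. Ern2, a stress sensor of mucus-producing cells, stood at -1.32 and 1.60. Fam111a, a protease known from human cells to restrict viruses, had -1.9985 and 1.488, and the superoxide-producing oxidase Nox1 -1.34 and 1.51. The adenylyl cyclase Adcy8 (-1.31 and 1.39), the glutathione transferase Gstt2 (-1.42 and 1.20) and the thyroid hormone carrier Ttr (-1.03 and 1.09) followed. The other members of the 12 clearest were Cdo1, which oxidises cysteine (-0.89 and 1.03), the tetraspanin Tspan12 (-0.85 and 0.97) and the secreted phosphoprotein Spp2 (-0.85 and 1.45). In the E16 pairs 5 of these 12 were above 0 in both pairs and 6 below 0 in both. Of the 12, 11 rested on 1 probe.

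**Figure D5:**
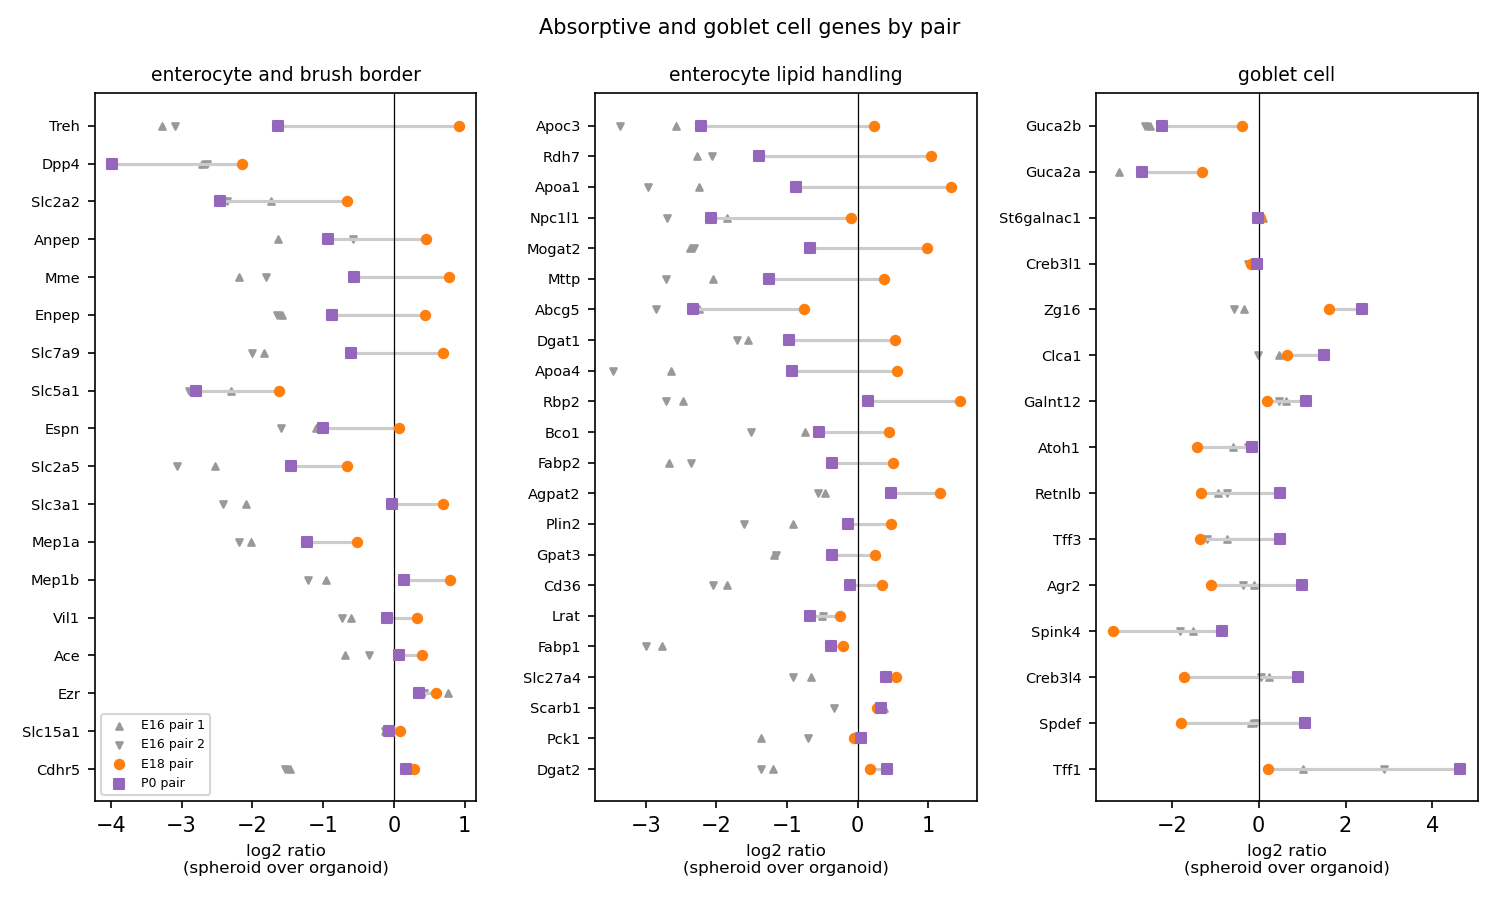
Log2 ratios of spheroid over organoid (x axis) for each measured gene of 3 lists (rows), with the E18 pair as circles, the P0 pair as squares and the E16 pairs as triangles. In the first panel all 18 circles lie right of their squares and most triangles lie left of 0, and in the goblet panel Spdef runs from -1.78 at E18 to 1.06 at P0.

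Glycolysis was the remaining list with opposite medians, 0.23 at E18 and -0.37 at P0. Of 18 measured genes, 6 were higher in spheroids at E18 and lower at P0 and 1 the reverse, against 2.02% and 1.2% of all genes. Ldha, lactate dehydrogenase, stood at 0.26 and -0.56, the phosphofructokinase Pfkp at 0.25 and -0.76 and Pdk1, which closes the way into mitochondria, at 0.14 and -0.83. Hk2, an inducible hexokinase, was the reverse at -0.57 and 0.56. Gapdh could be read on more probes: its gene ratio was 0.20 and -0.63, and the median of 7 separate control probes tiled along its transcript was 0.22 at E18, where the probes ran from -0.25 to 1.03, and -0.54 at P0, where they ran from -0.89 to -0.26. The list also held low-oxygen genes, so its counts and medians are not those of glycolytic enzymes alone. Of these, Vegfa (-1.26 and -1.86) and Car9 (-0.57 and -3.04) were lower at both stages. Egln3, an oxygen sensor that low oxygen induces, was higher at both, at 1.85 and 0.62.

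Other lists differed in size between the stages. Gastric genes had a median of 0.04 at E18 and 1.60 at P0, and 7 of 16 were higher in both, against 13.3% of all genes. Ctse and Gkn1 of this list are also among the fetal spheroid markers, so these counts overlap. The gastrokine Gkn2 stood at 0.94 and 5.64, the trefoil factor Tff1 at 0.22 and 4.64, Gkn1 at 2.46 and 4.42 and the cell adhesion protein Vsig1 at 2.84 and 5.40. The trefoil factor Tff2 was inside the range at E18, at -0.32, and at 4.65 at P0. Subunits of the acid pump of parietal cells were not high, with Atp4a at -0.17 and -0.34 and Atp4b at -0.06 and 0.01.

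Inflammatory signalling genes were above the range in 14 of 34 at E18 and in 24 of 34 at P0, against 24.2% and 21.5% of all genes, with medians of 0.04 and 0.51. The neutrophil-drawing chemokine Cxcl5 had the highest ratio of any gene at P0, 6.73, and stood at 0.07 at E18. The chemokine Ccl20 had 1.00 and 3.91, and the lipopolysaccharide co-receptor Cd14 1.62 and 3.05. The cytokine Il18 was the reverse, at 2.45 at E18 and -0.06 at P0. Cytosolic ribosomal protein genes had a lower ratio at E18 than at P0 in 22 of 22 measured, against 51.8% of all genes. Their medians were -0.54 and -0.09, and 15 of them were below the range at E18 and 3 at P0, against 10.8% and 12.9% of all genes. Among imprinted genes, the transcription factor Peg3 had opposite ratios, -1.16 and 0.75, while the growth factor Igf2 was low at both stages, at -0.86 and -1.0.

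Markers of cell types that the cultures should not hold lay near 0. Of 64 measured markers of mesenchyme, endothelium, leukocytes, nerve and red cells, 52 were inside the control range in both pairs, against 52.8% of all genes. A ratio near 0 does not tell absence in both cultures from equal levels. Vim, an intermediate filament of mesenchyme, stood at -0.90 and -0.61, and 10 tiled control probes on it had medians of -0.85 and -0.52. Lyve1 of lymphatic vessels (-1.13 and -1.35), the lysozyme Lyz2 (-1.28 and -1.95), the lysosomal protein Laptm5 (1.93 and 3.24), the co-receptor Cd14 (1.62 and 3.05) and the globin Hba-a1 (0.23 and 0.79) were the other markers beyond the range in both. The 4 probes of Lyz2 parted widely, from -4.28 to 0.0035 at E18 and from -3.26 to 0.019 at P0. The part of these markers in the ratios above was not tested.

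No gene passed limma's test as set up here. For the mean of the E18 and P0 ratios against 0, 0 of 15123 genes had an adjusted p under 0.05 (0% called, smallest adjusted p = 0.215), and 2408 had an unadjusted p under 0.05. With the spread taken from the E16 pairs instead, 3099 passed for this mean. Gja1 had a mean of 5.20 ± 0.59 (SD, n = 2, 1 E18 and 1 P0 pair), Gcg -5.51 ± 0.03 and Lgr5 -2.28 ± 0.04. This SD holds the difference between the stages and is no spread between replicates of a stage. The same is true of the spread between the E18 and P0 pairs in the test of the mean. For E18 minus P0, with the spread taken from the E16 pairs alone, 0 genes passed (smallest adjusted p = 0.0659) and 3174 had an unadjusted p under 0.05. The control range is set by probes with no target and does not measure the spread between animals. Calls also varied between probes of a gene: among genes with several probes, all probes gave the gene's call in 359 of 764 genes higher in both (47.0%), 103 of 247 lower in both (41.7%), 38 of 111 higher at E18 and lower at P0 (34.2%) and 14 of 39 of the reverse (35.9%).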

How the data were processed

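RNA of spheroids and organoids of the same mouse was amplified to antisense RNA, carried Cy3 or Cy5, and was hybridised with dyes swapped to arrays of 70-base probes, per the labels' protocols. The values deposited by the authors, 1 per probe and animal for 38083 probes, were taken as log2 ratios; no label states the base. How background, normalization and dye orientations were handled was not given in the sources used here. Column medians were -0.003 (E18) and -0.001 (P0), so the columns were centred, by a method that is unknown. All values were multiples of 0.0005 and none was missing. Without intensities, precision is limited by the number of arrays.

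The platform table gave 1 gene for 22941 probes, several for 0 and none for 15142. Control and transgene probes were left out, and the other 22305 were averaged to 15123 genes, 5108 of them with several probes. All gene IDs matched RefSeq (GRCm38.p6), used for symbols and promoter stretches. Genes beyond the 94 negative control probes of a pair were called. limma 3.58.1 (R 4.3.3; lmFit, eBayes, two-sided, Benjamini-Hochberg over all genes, threshold 0.05) tested the mean of both pairs and E18 minus P0. That difference takes its spread from the E16 pairs, so the lone E18 and P0 pairs are assumed to vary like them. The fits were tested on simulated data. Python 3.11.15 was used for the rest.

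Named were Lgr5 and Gja1, the 12 highest and 12 lowest genes by the smaller of the ratios, the 12 clearest genes per opposite direction, and up to 4 members per list by shared size or difference, without clone names. Further list members were picked as examples with their values in view. The 43 lists and all members were chosen with earlier results of these data known. Alternatives were other control ranges, a 2-fold threshold, 1 probe per gene, probes as the unit, scaled columns, the mean over list members, a robust prior, a filter, the E16 spread and leaving out a pair.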

Additional observations from a re-analysis of the deposited data

Results flagged for a closer look

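The following are differences in log2 ratio, E18 minus P0, of gene lists and genes that lay beyond the control range on opposite sides at E18 and P0. With 1 pair per stage the difference between the stages could not be tested within a stage, and none passed limma with the spread of the E16 pairs. The list medians differed by 1.10 for brush border genes, 0.88 for lipid handling, 0.60 for glycolysis and -1.59 for goblet cells.

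Of the genes higher in spheroids at E18, Adh1 differed by 4.02, Cyp4f14 by 3.99, Adh4 by 3.88, Ifit3 by 3.69, Isg15 by 3.54 and Oasl2 by 3.32. Xlr3c differed by 2.74, Mpp4 by 2.68, Aoc1 by 2.58, Treh by 2.56, Apoc3 by 2.46 and Rdh7 by 2.43. Values for Apoa1 (2.19), Oasl1 (2.17), Emc9 (2.16), Clca4a (2.15), Sult1b1 (2.01), Gstm3 (1.55), Anpep (1.38) and Pfkp (1.01) were smaller. Of the genes higher in spheroids at P0, Fam111a differed by -3.49, Clps by -3.39, Ern2 by -2.91, Nox1 by -2.85, Spdef by -2.84 and Adcy8 by -2.71. Gstt2 differed by -2.62, Creb3l4 by -2.61, Spp2 by -2.30, Ttr by -2.12, Agr2 by -2.08, Cdo1 by -1.92, Tspan12 by -1.82 and Hk2 by -1.13.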

How the results depend on the processing

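The count of 3357 genes beyond the control range in both pairs was 5888 without the lowest and highest control probe (a range chosen after seeing the data), 396 at 2-fold and 5062 with probes as the unit. Within a single pair it was 5209 (P0 alone) and 5291 (E18 alone), as fewer pairs must pass. In 4426 genes (3 SD), 2974 (the wider range of both pairs) and 3819 (1 probe per gene) it stayed within 1.5 times. Scaling the columns scales the controls too and cannot change it. The 4 lists on which the stages disagree were 4 to 6 under the other settings: interferon genes joined without the extreme control probes, with 1 probe per gene and with means, G1 cyclins and inhibitors joined without the extreme control probes, and brush border genes dropped out with means. limma's count of 0 for the mean ratio became 1166 when only genes beyond the range in a pair were tested, a filter that uses the outcome, 3099 with the spread of the E16 pairs, and 2061 (without the E18 pair) and 1521 (without the P0 pair), where the lone pair is assumed to vary like the E16 pairs. For E18 minus P0 that filter gave 662 in place of 0. With 1 probe per gene, scaled columns or a robust prior both counts were 0 (2219 to 3323 genes at an unadjusted p under 0.05). Single genes were recomputed only for the genes of the naming rule, with 1 probe per gene and with scaled columns, and no sign turned there. Each ratio is itself a comparison within 1 animal, so the test of the mean ratio was paired over both animals. No paired test was possible within a stage, because each stage here is 1 pair. Signal over background is unknown, so dim probes could not be set apart.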

Other observations

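Some genes lay far beyond the control range in 1 pair and inside it in the other. At E18 these were led by Bex4 at -3.70, Xlr4b at 3.24 and the early response factor Fos at -2.48, with P0 values of -0.20, -0.04 and 0.14. The growth factor Bmp4 stood at 2.00 at E18 and -0.11 at P0. At P0 the protease Casp1, which matures inflammatory cytokines, stood at -4.24, the oxidase maturation factor Duoxa2 at 3.99 and Vsig2 at 3.85, with E18 values of -0.08, 0.04 and -0.09. The antimicrobial lectin Reg3b had 2.71 at P0 and -0.24 at E18. Each rested on 1 probe, other than Vsig2 and Reg3b.

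The sterol regulatory element, searched as TCACNCCAC on both strands of the 250 bases before the gene's start, was found in 346 of 32851 windows (1.05%). Of the 14 cholesterol synthesis genes with a window 1 held it, Hmgcs1, which stood at -0.11 at E18 and 0.52 at P0. None of the 12 with a window that were higher in both pairs held these letters.

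Control probes tiled along single transcripts gave a second reading of some genes. The lysosomal protease Ctsd had tiled medians of 1.72 and 1.84 against gene ratios of 1.60 and 1.81. The actin-severing Gsn had tiled medians of 1.00 and 1.10 against 0.33 and 0.47, so its gene ratio was the lower reading. Other readings parted more. Rpn2 had a gene ratio of -0.78 at E18, below the control range, while its 20 tiled probes had a median of -0.10, inside it. The 17 tiled probes of Eef2 ran from -1.43 to 0.75 at E18, with a gene ratio of -0.03.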
